A study of Rattus norvegicus with 12 samples.

Results

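The genes described here are 9 transcription factors known from myeloid cells: Spi1, Irf8, Irf5, Cebpa, Cebpb, Maf, Runx1, Ikzf1 and Crem. Their probes were chosen by gene name in the scanner files, a rule that found 12 probes of 8 members among 30367 probes of 26612 gene names. No probe carried the name Spi1. The probe of that gene bears its older symbol, Sfpi1, and was joined through its RefSeq accession after the files were seen, which made 13 probes in all. Crem had 5 probes and each other member had 1.

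The cervix of 12 adult female Sprague Dawley rats was dispersed into cells, and their RNA was measured on 1-colour Agilent rat arrays, with 1 array per rat and 3 rats per group. Nonpregnant (NP) rats were in proestrus, and the pregnant rats were on day 21 postbreeding (D21), the day before birth is expected, when the cervix is remodeled. Every rat was perfused with saline and every cervix was minced and digested with collagenase B. In 1 group at each stage these whole cervix cells were frozen directly, and in the other the cells were first incubated with the ED1 antibody and magnetic beads to remove macrophages (Mφs), so the whole groups went without those handling steps and came from different rats. The comparison of whole with Mφ-depleted cervix asks which transcripts go with the removed cells, and the comparison of D21 with NP asks which differ with pregnancy near term. All values below are log2 intensities after subtraction of the log2 75th percentile of that array, and levels are never compared between probes.

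Spi1 encodes PU.1, an ETS factor that myeloid cells need to develop and that binds the promoters of many Mφ genes, among them the receptor gene Csf1r. Irf8 directs progenitors towards monocytes and dendritic cells, Irf5 drives inflammatory cytokine genes, and Cebpa and Cebpb encode C/EBP factors of granulocyte and monocyte development and of inflammatory responses. Maf acts in mature Mφs, Runx1 founds the blood lineages but is also used in epithelia, and Ikzf1 encodes Ikaros, best known from lymphocytes. Crem encodes activators and repressors that answer cAMP, and a start site inside the gene gives a short repressor that is itself induced through cAMP response elements.

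Crem is shown by sequence because its probes read different parts of the gene and gave different values. Probes 2 and 3 are alternatives of each other: both are 60 bases long, run in frame without an internal stop and end in a stop codon, and they differ at 21 bases, given here in capitals. Both lie on chromosome 17 of the rat build that the files use (rn4, plus strand), at chr17:62835959-62836018 and chr17:62836355-62836414.
Crem probe 2: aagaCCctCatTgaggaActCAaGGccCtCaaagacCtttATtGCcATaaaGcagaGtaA
Crem probe 3: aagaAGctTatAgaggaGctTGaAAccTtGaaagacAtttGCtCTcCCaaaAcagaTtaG

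Crem probe 1 lies upstream of these (chr17:62822636-62822695), and 47 of its bases match, from base 4 after the start onward, the 2nd of 3 Crem start sites that RefSeq gives for build GRCr8. The sequence searched ended 50 bases after the start, which cut this match, so bases beyond it were not compared. The 100 bases before the 2nd and 3rd start are shown with the cAMP response element in capitals.
Crem start 2, GRCr8 chr17:58984697-58984796, plus strand: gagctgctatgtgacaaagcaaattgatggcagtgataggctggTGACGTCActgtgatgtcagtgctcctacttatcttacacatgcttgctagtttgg
Crem start 3, GRCr8 chr17:58985390-58985489, plus strand: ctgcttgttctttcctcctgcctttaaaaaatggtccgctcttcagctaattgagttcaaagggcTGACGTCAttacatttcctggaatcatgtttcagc

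The palindrome TGACGTCA, which reads the same on both strands, was searched in the 300 bases around each start (250 before and 50 after). It occurred in 1.83% of all promoters in the table, once at the 2nd Crem start and 2 times at the 3rd, and not at the 1st. No other promoter of a member held it, of 10 promoters from 8 members, and Spi1 had none in the table. Other motifs were also searched on both strands. GAGGAA, the core that PU.1 binds, was in 3 of the 10 (1 of Ikzf1 and 2 of Crem) and in 27.6% of all promoters, and a pair of IRF half-sites, GAAA and again GAAA 2 bases on, was in none of them and in 3.92% of all. A match of letters is not evidence of binding.

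The Spi1, Maf and Ikzf1 probes are also shown, since the results for these genes turn on what a lone probe reads. The Maf probe shares a run of 25 bases, in capitals, with the probe of its relative Mafa. The longest run that the Spi1 and Ikzf1 probes share with a probe of a close relative was 6 bases, with Spic, and 7 bases, with Ikzf3. Only probes were compared, not whole transcripts, so a short run does not show that a probe reads its gene alone.
Spi1 probe, rn4 chr3:75475250-75475309, plus strand: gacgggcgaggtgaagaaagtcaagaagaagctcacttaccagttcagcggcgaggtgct
Maf probe, rn4 chr19:45860202-45860261, minus strand: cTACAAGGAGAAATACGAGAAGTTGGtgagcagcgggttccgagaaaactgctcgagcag
Ikzf1 probe, rn4 chr14:92656740-92656799, plus strand: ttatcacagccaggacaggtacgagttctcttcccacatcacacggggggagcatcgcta

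The share of probes well above background ranged from 44.9% to 61.8% over the arrays. The 2 dimmest arrays were NP Mφ-depleted rat 7 and NP whole rat 8, whose 75th percentiles of intensity were 289.8 and 309.4 against 509.4 to 1171 on the others. Scanning took 3 days, and the last of them held all 6 whole arrays. Only D21 Mφ-depleted rat 4 and NP Mφ-depleted rat 7 were scanned beside them. Values within that day are therefore given for the members' calls between whole and depleted cervix, on the probe used for each gene. They set 3 whole arrays against 1 depleted array, which is assumed to vary like the arrays of the other groups. Of the 13 member probes, 8 were well above background on all 12 arrays and none was saturated.

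Of the 5 Mφ transcripts used to check the depletion, all but Cd68 were higher in whole cervix at both stages. Adgre1, which encodes the F4/80 antigen, was well above background on 0 of 3 depleted arrays at either stage, so its excess in whole cervix is a bound, at least 36.6-fold for D21 and at least 39.7-fold for NP rats (such bounds set the depleted arrays at the lowest signal counted as above background, or at the probe's own signal if that is higher). Csf1r, well above background on only 1 of 3 depleted arrays at each stage, was 6.74 higher on the log2 scale in whole than in depleted cervix at D21 and 6.68 in NP rats. The same difference was, for Itgam, an integrin gene of myeloid cells still measured on 2 of 3 depleted arrays, 2.93 and 2.86, and for the leukocyte gene Ptprc 4.85 in NP rats, with a bound of at least 16.1-fold at D21. The mean over 18 of 20 Mφ markers lay between 0.92 and 1.58 on the 6 whole arrays and between -3.29 and -2.42 on the 6 depleted arrays. Of these 18, 8 could be tested between the depleted groups, and the others were kept only through whole cervix, so part of this gap comes from the filter. Cd68, whose protein the ED1 antibody binds, differed by -0.15 (SE 0.62, limma adjusted p = 0.882) and 0.54 (SE 0.62, adjusted p = 0.53), and was well above background on all arrays. In such bulk samples, fewer cells of a type and less RNA per cell cannot be told apart.

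A member was called when limma gave, on the probe used for its gene, an unadjusted p below 0.01 and a difference of at least 2-fold. The p adjusted over all genes tested is given beside each value. At D21, 8 members were tested between whole and Mφ-depleted cervix, of which Spi1 and Crem were called higher in whole cervix and none lower. The same call took 10.1% of the 14225 genes tested as higher and 7.7% as lower. In NP rats, of 8 members tested, Spi1 was called higher and Runx1 lower in whole cervix, against 13.6% and 10.8% of 13381 genes. The share of members called was thus near the background at both stages, while the median of the members' log2 differences was 0.35 at D21 and -0.37 in NP rats against -0.06 and -0.04 over all genes. Values of whole and depleted rats did not overlap for 3 members at D21 (44.5% of all genes) and for 4 in NP rats (47.1%).

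**Figure D1:**
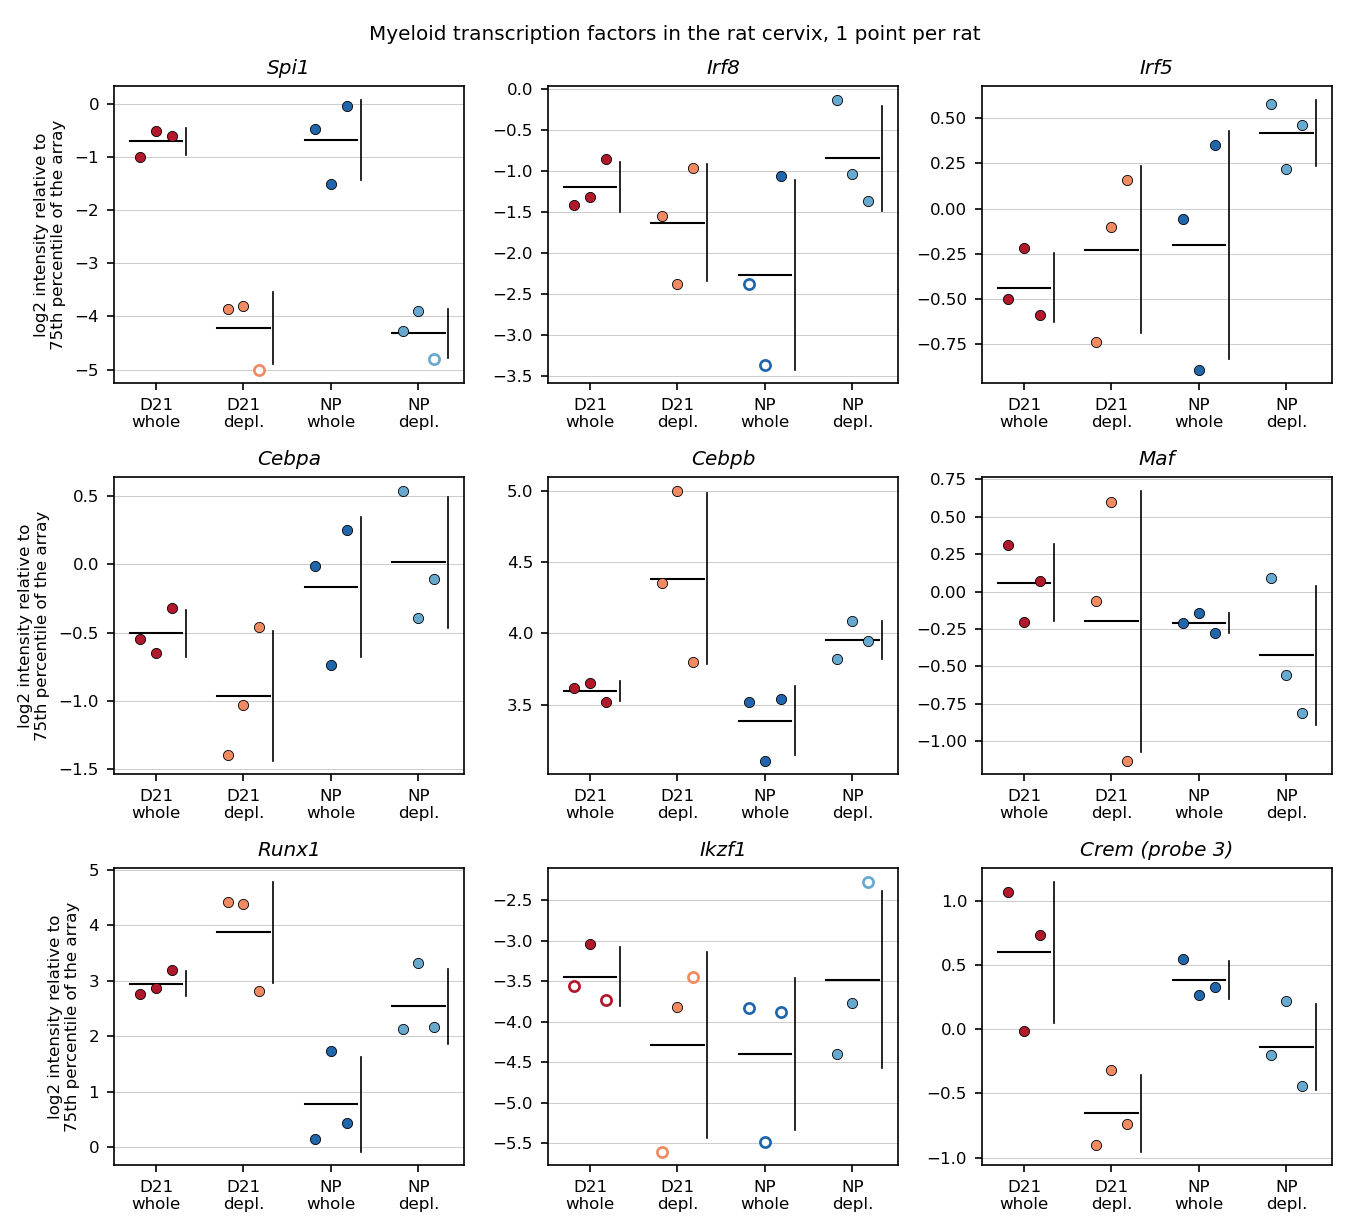
Log2 intensity minus the log2 75th percentile of that array (vertical axes, scaled per gene) for the probe used of each member in the 4 groups. Each point is 1 rat, open points were not well above background, horizontal lines are group means and vertical lines show 1 SD on each side. Spi1 lies between -1.51 and -0.04 on the 6 whole arrays and between -5.00 and -3.80 on the 6 depleted arrays, while Irf5, Cebpa and Maf overlap between whole and depleted cervix at D21.

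On the probe used for each gene, Spi1 was the only member called in whole against depleted cervix at both stages, each time as higher in whole cervix. Crem was called higher at both stages on its probes 1 and 4, described below. In whole cervix of D21 rats 5, 6 and 7 Spi1 measured -1.0, -0.51 and -0.60, and in Mφ-depleted D21 rats 1, 2 and 4 it measured -3.86, -3.80 and -5.00. In NP rats it measured -0.46, -1.51 and -0.04 in whole cervix (rats 8, 9 and 10) and -4.27, -3.89 and -4.80 after depletion (rats 5, 6 and 7). Every whole value thus lay above every depleted value, and the lowest depleted value at each stage, rat 4 at D21 and rat 7 of the NP group, was not well above background.

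The difference in Spi1 was 3.52 on the log2 scale at D21 (SE 0.43, 11.5-fold, limma adjusted p = 0.000498) and 3.65 in NP rats (SE 0.43, 12.6-fold, adjusted p = 9.11e-05). Within the last scan day the lone depleted array at each stage was not well above background, which leaves bounds of at least 8.09-fold at D21 and at least 4.81-fold in NP rats. With a normexp background correction, which compresses low signals, the D21 difference was 1.38 and no longer called (adjusted p = 0.194), while the NP difference was 2.23 and still called. Spi1 did not differ detectably between D21 and NP whole cervix, at -0.04 with a 95% interval from -0.98 to 0.91. Removal lowered it by amounts that differed between the stages by -0.13 (95% interval -1.47 to 1.21, adjusted p = 0.927).

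Of all genes above background, those most like Spi1 over the 12 arrays were Tyrobp (Pearson r 0.989), Fcer1g (0.987) and Fcgr1a (0.986). Tyrobp and Fcer1g encode signalling adaptors of myeloid receptors and Fcgr1a the high-affinity IgG receptor. All 12 arrays fall into whole and depleted sets for these genes, so r here describes mainly that split. All 3 genes are on the list of known Spi1 targets.

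That list of known Spi1 targets in myeloid cells held 26 genes, 24 of them tested. Only 11 of these could be tested between the depleted groups. The others passed the background filter only through whole cervix, where they are high, so a lower call was hardly possible for them. At D21, 16 of the 24 were higher in whole cervix and 0 lower, with a median difference of 3.24. In NP rats 19 were higher and 0 lower, with a median of 4.15. Over all genes tested, 10.1% were called higher at D21 and 13.6% in NP rats. At D21 they included Csf1r (6.74) and Cybb, a subunit of the phagocyte oxidase (5.95), each well above background on 1 of 3 depleted arrays, and the mannose receptor gene Mrc1, at least 22.3-fold higher and well above background on none of them. In NP rats the lysozyme gene Lyz2 (7.62), Csf1r (6.68) and Fcgr1a (6.12) led. Csf1r, Mrc1, Lyz2 and Fcgr1a are also on the list of Mφ markers, and the dependence of the targets on Spi1 was not tested. Between D21 and NP whole cervix, 0 of these 24 targets were higher and 1 lower, Ncf1, an oxidase subunit, at -1.32 (adjusted p = 0.0869).

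Among 10 ETS relatives of Spi1, 7 were tested at D21 and 6 in NP rats. Fli1, an ETS gene of blood and endothelial cells, was higher in whole cervix at both stages, by 2.00 (adjusted p = 0.000575) and 2.04 (adjusted p = 0.00012). Spic, known from red pulp macrophages of the spleen, was higher by 2.39 at D21 (adjusted p = 0.0182). It was well above background on only 1 of 3 depleted D21 arrays. Ets2 was lower by -1.53 at D21 (adjusted p = 0.0286) and Etv6 was lower by -1.27 in NP rats (adjusted p = 0.0272). Between D21 and NP, limma called 0 of 7 ETS relatives in whole cervix and 0 of 6 in depleted cervix, with 1 in each at an unadjusted p below 0.05.

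**Figure D2:**
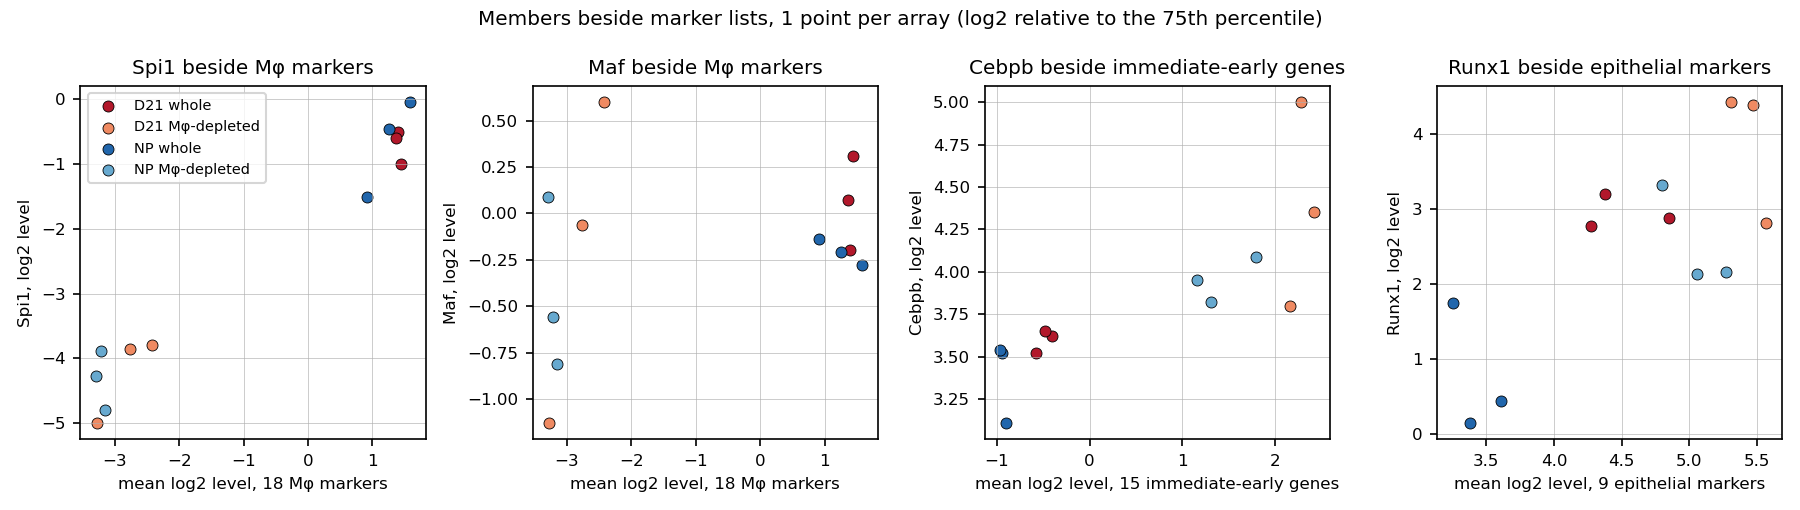
Log2 level of Spi1, Maf, Cebpb and Runx1 (vertical axes) against the mean log2 level of a marker list on the same array (horizontal axes), 1 point per array, coloured by group. Spi1 separates whole from depleted arrays as the 18 Mφ markers do. Maf overlaps between whole and depleted arrays and spreads wider on the depleted ones, and the highest values of Cebpb and Runx1 lie on D21 Mφ-depleted arrays.

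Both interferon regulatory factors stayed measurable after Mφ removal. Irf8 measured -1.41, -1.32 and -0.85 in whole D21 cervix and -1.55, -2.38 and -0.96 after depletion, a difference of 0.44 (SE 0.55, 95% interval -0.78 to 1.65, adjusted p = 0.584). In NP rats it measured -2.37, -3.36 and -1.06 in whole cervix and -0.13, -1.04 and -1.36 after depletion. The NP depleted values overlapped the whole values only through rat 10, and the values of whole rats 8 and 9 were not well above background.

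Irf8 was thus lower in whole than in depleted NP cervix by -1.42 (SE 0.55, 2.67-fold), which did not pass the call (adjusted p = 0.0698), and without NP whole rat 10 it did, at -2.02 (adjusted p = 0.0141). Both whole arrays left there, rats 8 and 9, were not well above background, so that difference is a bound of at least 4.06-fold. Between D21 and NP whole cervix Irf8 differed by 1.07 (95% interval -0.15 to 2.28), and without NP whole rat 10 by 1.67, which was called (adjusted p = 0.108) and is likewise a bound, at least 3.19-fold. With the slide as a block the direction turned, at -0.14. The effects of removal differed between D21 and NP by 1.86 (SE 0.79, adjusted p = 0.233). By group mean the order of Irf8 was NP depleted (-0.84), D21 whole (-1.19), D21 depleted (-1.63) and NP whole (-2.26), and each group overlapped the next. The genes most like it were Farp2 (r 0.921), Mbnl3 (0.899) and Ints6 (0.896), none of them a Mφ marker of the lists used here.

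Irf5 measured -0.50, -0.22 and -0.59 in whole D21 cervix and -0.74, -0.10 and 0.16 after depletion. In NP rats it measured -0.06, -0.89 and 0.35 in whole cervix and 0.58, 0.22 and 0.46 after depletion. The groups overlapped at both stages, and whole minus depleted was -0.21 at D21 (95% interval -0.94 to 0.52) and -0.62 in NP rats (95% interval -1.35 to 0.11). In depleted cervix the D21 and NP rats did not overlap, at -0.65 (SE 0.33, adjusted p = 0.279), as was so for 17.1% of all genes in that comparison. Or2h2c (r 0.920) and Mef2d (0.914) were among the 3 genes most like Irf5.

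The known targets of Irf8 and Irf5 numbered 11, of which 5 were tested between whole and depleted cervix at each stage. At D21 3 were higher and 0 lower, Cybb, Ctss and Cst3, and in NP rats these were higher again with Il12a, the p35 subunit of interleukin 12, at least 6.67-fold. Il12a was also at least 5.61-fold lower in D21 than in NP whole cervix. Cybb and Ctss are also on the Spi1 list. In the rest of the IRF family, 5 of 7 genes were tested and 0 were higher and 3 lower in whole cervix at each stage. Irf3, an antiviral factor of many cell types, differed by -1.58 (adjusted p = 0.0018) and -1.86 (adjusted p = 0.000156), and Irf1, induced by interferon, by -1.88 (adjusted p = 0.0219) and -1.70 (adjusted p = 0.0194).

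Cebpa measured -0.55, -0.65 and -0.32 in whole D21 cervix, -1.40, -1.03 and -0.46 in depleted D21 cervix, -0.01, -0.74 and 0.25 in whole NP cervix and 0.54, -0.39 and -0.11 in depleted NP cervix. Whole and depleted rats overlapped at both stages, with differences of 0.46 (95% interval -0.30 to 1.21) and -0.18 (95% interval -0.94 to 0.57). D21 depleted rats 1 and 2 had the lowest Cebpa values, and the D21 depleted rats did not overlap NP depleted rats, from which they differed by -0.98 (SE 0.34, adjusted p = 0.133). That difference passed neither the fold nor the p of the call, and within the last scan day, with 1 array on each side, it was -0.35. Without D21 Mφ-depleted rat 4 it was -1.23 and called (adjusted p = 0.0356), as it was without NP Mφ-depleted rat 6 at -1.18 (adjusted p = 0.122). Metap2 (r 0.942), Trex1 (0.935) and Mad2l1 (0.931) were the genes most like Cebpa.

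Cebpb ran the other way, with its highest values after Mφ removal. It measured 3.62, 3.65 and 3.52 in whole D21 cervix and 4.35, 5.00 and 3.80 after depletion, and in NP rats 3.52, 3.11 and 3.54 in whole cervix and 3.82, 4.09 and 3.95 after depletion. Whole and depleted values did not overlap at either stage. The differences of -0.78 at D21 (SE 0.29, 1.72-fold, adjusted p = 0.0707) and -0.56 in NP rats (SE 0.29, 1.48-fold, adjusted p = 0.153) passed neither the fold nor the p of the call. Without D21 Mφ-depleted rat 4 the D21 difference was -1.07 and called (adjusted p = 0.00743), and within the last scan day, which leaves rat 4 as the lone depleted D21 array, it was -0.20.

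The genes most like Cebpb over the 12 arrays were Alkbh5 (r 0.973), Necap2 (0.969) and Nfkbia (0.966), which encodes the inhibitor of NF-kB. Immediate-early genes, which cells switch on within minutes of handling or stimulation, moved in the same direction. Of 15 tested at D21, 13 were lower in whole than in depleted cervix, and of 14 in NP rats, 12 were. The mean over 15 such genes lay between -0.96 and -0.40 on the whole arrays and between 1.16 and 2.42 on the depleted arrays. Their part in the Cebpb values was not tested. Known C/EBP targets showed 2 of 7 higher and 0 lower at D21 and 3 of 8 higher and 0 lower in NP rats, led by Csf3r, the G-CSF receptor gene (at least 2.73-fold), and Lpl, lipoprotein lipase (2.02), at D21 and by Lpl (3.69) in NP rats. Of the other 3 C/EBP genes tested, limma called 0 between whole and depleted cervix at either stage, with 1 at an unadjusted p below 0.05 at D21 and 0 in NP rats.

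Maf showed no difference that the test resolved. It measured 0.31, -0.20 and 0.07 in whole D21 cervix, -0.06, 0.60 and -1.13 in depleted D21 cervix, -0.21, -0.14 and -0.28 in whole NP cervix and 0.09, -0.56 and -0.81 in depleted NP cervix. All 4 groups overlapped their neighbours, and whole minus depleted was 0.26 at D21 (95% interval -0.61 to 1.12) and 0.22 in NP rats (95% interval -0.64 to 1.08). D21 depleted rats spread widest, with an SD of 0.88 against 0.07 in NP whole cervix, and within the last scan day, which leaves only rat 4, the lowest of all Maf values, the D21 difference was 1.19 (adjusted p = 0.0477, a call that rests on that array). The named genes most like Maf were Gbas (r 0.878) and Pdap1 (0.870), after a probe without a gene name (0.885).

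Most known Maf targets tested were called higher in whole cervix. Only 3 of them could be tested between the depleted groups, and the others passed the background filter only through whole cervix, where they are high. Of 6 tested at D21, 5 were higher in whole cervix and 0 lower, led by C1qc (6.19), the scavenger receptor gene Cd163 (5.28) and C1qa (5.04), and of 4 tested in NP rats all were higher, led by C1qc (6.92), C1qa (6.59) and C1qb (5.13). Cd163 was also higher in D21 than in NP whole cervix, by 3.61 (adjusted p = 0.00437). The complement genes and Cd163 are also on the list of Mφ markers. Among other MAF genes, Mafg was lower in whole cervix by -1.15 at D21 (adjusted p = 0.0294) and -1.14 in NP rats (adjusted p = 0.0188).

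**Figure D3:**
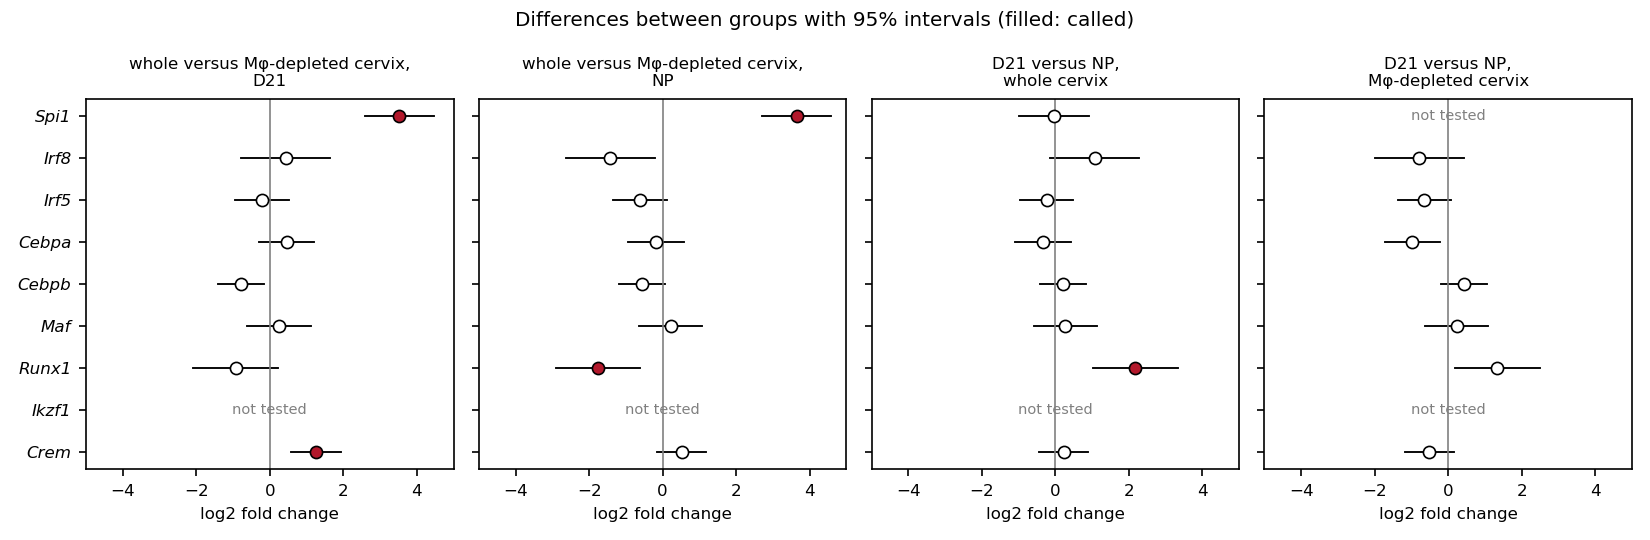
Log2 fold changes of the members (horizontal axes) in the 4 comparisons between groups, with 95% intervals from limma as lines and filled points for calls. Spi1 differs by 3.52 and 3.65 between whole and depleted cervix, Runx1 by -1.76 in NP rats and by 2.17 between D21 and NP whole cervix, and Crem by 1.26 at D21.

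Runx1 was the member that differed with pregnancy. In whole cervix it measured 2.77, 2.87 and 3.20 at D21 and 0.14, 1.74 and 0.44 in NP rats, so that the stages did not overlap. D21 was higher by 2.17 (SE 0.53, 4.51-fold, limma adjusted p = 0.037), and Runx1 was the only member called of 8 tested, against 5.39% of 14035 genes called higher and 3.09% lower. Of these 8 members, Runx1 alone did not overlap, as was so for 44.3% of all genes. The members' median difference was 0.21 against -0.08 over all genes. All 6 of these arrays were scanned on 1 day, and on the slide that held all 3 D21 whole arrays and NP whole rat 10 the difference was 2.51. Without the 2 dimmest arrays the difference was 1.86 and not called (adjusted p = 0.159), with normexp it was 1.73 and not called (adjusted p = 0.328), and the methods' t-test did not call it either (adjusted p = 0.179).

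Runx1 was also called in NP rats between whole and depleted cervix, with the lower values in whole cervix. Depleted cervix measured 4.42, 4.38 and 2.81 at D21 and 2.13, 3.32 and 2.16 in NP rats. In NP rats every depleted value lay above every whole value, and whole minus depleted was -1.76 (SE 0.52, 3.39-fold, adjusted p = 0.0241). This call did not hold with the slide as a block (-0.93, adjusted p = 0.335) or the scan day as a block (-1.10, adjusted p = 0.194), and within the last scan day the difference was -1.39 (adjusted p = 0.125) and within slide 3 it was -1.22. Without the 2 dimmest arrays it was -1.63 and not called (adjusted p = 0.104). It was also lost with the methods' t-test (adjusted p = 0.157), without NP whole rat 8 (-1.45, adjusted p = 0.0998), without NP whole rat 10 (-1.59, adjusted p = 0.0799) and without NP Mφ-depleted rat 6 (-1.37, adjusted p = 0.0921).

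At D21, Runx1 in whole cervix overlapped the depleted rats through rat 4, with a difference of -0.93 (95% interval -2.08 to 0.23, adjusted p = 0.214) that turned to 0.36 with the slide as a block and to 0.14 within the last scan day. Between the depleted groups D21 was higher by 1.34 (SE 0.52, adjusted p = 0.171), and without D21 Mφ-depleted rat 4 by 1.87 and called (adjusted p = 0.0252), as without NP Mφ-depleted rat 6 by 1.73 (adjusted p = 0.122). Within the last scan day, with 1 array on each side, it was 0.65. By mean, the order was D21 depleted (3.87), D21 whole (2.95), NP depleted (2.54) and NP whole (0.77), and only the last step, from NP depleted to NP whole, was without overlap.

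Epithelial transcripts were also highest in D21 depleted and lowest in NP whole cervix. The mean of 9 of 10 epithelial markers lay between 5.31 and 5.57 in D21 depleted cervix, 4.80 and 5.27 in NP depleted, 4.27 and 4.85 in D21 whole and 3.25 and 3.61 in NP whole cervix. Of these 9 genes, 6 were called higher at D21 than NP in whole cervix and 6 lower in whole than in depleted NP cervix, Krt5, a basal keratin, by -2.90, Dsp, which encodes desmoplakin, by -2.59, and Cldn4, a tight junction gene, by -2.31. Their part in the Runx1 values was not tested. The genes most like Runx1 were Smim22 (r 0.981) and Padi4 (0.980), and a transcript known here only by its identifier (0.978). Of the 2 other genes tested of the RUNX family and its partner CBF beta, limma called 0 between whole and depleted cervix at either stage, with 0 at an unadjusted p below 0.05 at D21 and 1 in NP rats, and 0 between D21 and NP whole cervix, with 0 at that p.

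Ikzf1 was near background throughout. It measured -3.56, -3.04 and -3.73 in whole D21 cervix, -5.60, -3.82 and -3.45 in depleted D21 cervix, -3.83, -5.48 and -3.88 in whole NP cervix and -4.40, -3.77 and -2.27 in depleted NP cervix. Only 4 of the 12 values were well above background, those of D21 whole rat 6, D21 Mφ-depleted rat 2 and NP Mφ-depleted rats 5 and 6. It was therefore not tested in any comparison. Among its relatives, 1 of 3 with a probe was tested, and it was not called by limma between whole and depleted cervix, nor did its unadjusted p fall below 0.05. Of lymphocyte markers, 7 of 13 T and NK cell genes and 3 of 6 B cell genes could be used. The mean of the T and NK cell genes lay between -3.25 and -1.99 on whole arrays and between -4.77 and -3.66 on depleted arrays, without overlap. Of these 7 genes, 2 could be tested between the depleted groups. The others were kept only through whole cervix, so this gap is partly built in by the filter. The relation of the lymphocyte markers to Ikzf1 was not tested.

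Crem was higher in whole than in depleted D21 cervix on each of 4 probes. Probe 3, the brightest and the one used for the gene, measured 1.07, -0.01 and 0.74 in whole D21 cervix and -0.90, -0.32 and -0.74 after depletion. The groups did not overlap, and the difference was 1.26 (SE 0.31, 2.39-fold, limma adjusted p = 0.0173). This call was lost with the slide as a block (1.43, adjusted p = 0.475), within the last scan day (1.35, adjusted p = 0.116), with normexp (0.88, adjusted p = 0.154), with array weights (1.26, adjusted p = 0.0406 but an unadjusted p above the threshold), with the methods' t-test (adjusted p = 0.215) and without D21 whole rat 5 (1.02, adjusted p = 0.0718). In NP rats probe 3 measured 0.55, 0.27 and 0.33 in whole cervix and -0.20, 0.22 and -0.44 after depletion, again without overlap, and the difference of 0.52 (95% interval -0.14 to 1.19, adjusted p = 0.209) was not called.

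The other Crem probes were tested after the files were seen. Probe 1, at the 2nd start, measured -0.62, -1.65 and -0.95 in whole D21 cervix and -4.75, -4.06 and -3.84 after depletion, the last not well above background. That was the largest difference of the 4 probes tested, 3.14 (SE 0.34, 8.84-fold, adjusted p = 0.000239). In NP rats probe 1 measured -1.28, -1.91 and -1.83 in whole cervix and -2.77, -2.94 and -3.41 after depletion, the last again not well above background, a difference of 1.37 (SE 0.34, 2.58-fold, adjusted p = 0.0104). Between D21 and NP these differences themselves differed by 1.78 (SE 0.49, 95% interval 0.71 to 2.85), which did not pass the adjusted threshold (adjusted p = 0.085).

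Crem probe 2, the alternative to probe 3, measured 0.95, 0.07 and 0.60 in whole D21 cervix and -1.47, -0.96 and -0.84 after depletion, a difference of 1.63 (SE 0.30, adjusted p = 0.00474). In NP rats it measured 0.39, -0.07 and 0.28 against -0.02, 0.08 and -0.58, which overlapped, and the difference was 0.37 (95% interval -0.28 to 1.02). Probe 4, downstream of probe 3 (chr17:62836427-62836486), differed by 1.29 at D21 (adjusted p = 0.0195) and by 1.08 in NP rats (adjusted p = 0.0245). In the 2 whole groups probe 4 measured 0.91, -0.25 and 0.54 (D21) and 0.45, 0.22 and 0.13 (NP), and in the depleted groups -0.82, -0.99 and -0.85 (D21) and -1.37, -0.60 and -0.47 (NP), without overlap at either stage. Probe 5, the farthest downstream (chr17:62837437-62837496), lay between -5.17 and -3.46, was well above background on 4 of 12 arrays and was not tested. In NP rats the call on Crem therefore depended on the probe, with probes 1 and 4 called and probes 2 and 3 not. For probe 1 the lone depleted arrays of the last scan day, D21 rat 4 and NP rat 7, were not well above background. Its differences within that day would therefore be bounds. For probe 4 that NP array measured -0.47 against a whole mean of 0.27, short of the 2-fold of the call. Blocks, normexp and the methods' t-test are not given for probes 1, 2 and 4.

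**Figure D4:**
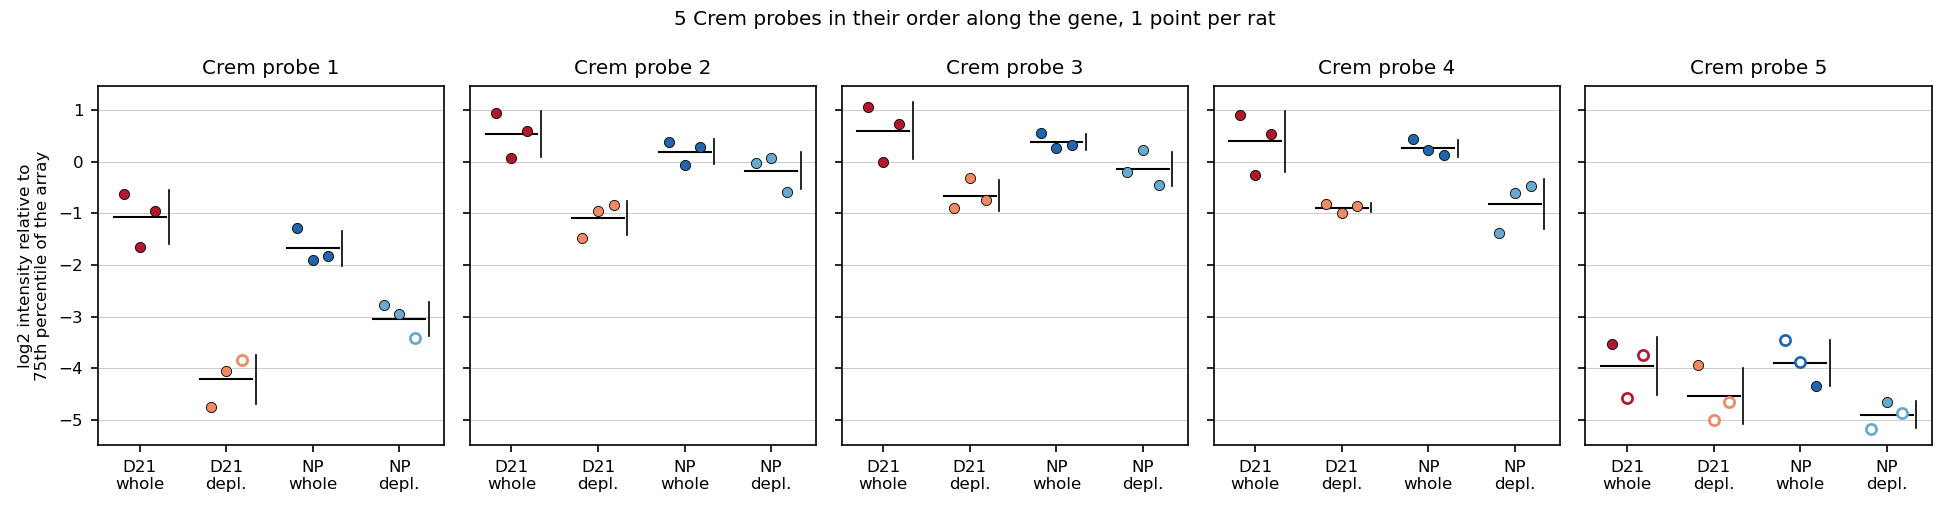
Log2 intensity minus the log2 75th percentile of that array (vertical axis) for the 5 Crem probes in their order along the gene. Each point is 1 rat, open points were not well above background, horizontal lines are group means and vertical lines show 1 SD on each side. Probe 1 falls from a mean of -1.07 to -4.21 between whole and depleted D21 cervix, and probe 3 from 0.60 to -0.66.

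The list of known Crem and Creb1 targets held 10 genes, Crem itself among them. At D21, 8 were tested, 4 lower in whole than in depleted cervix, 1 higher, which was Crem, and 3 not called (Pde4b, Sik1 and Pde4d, named after their values were seen). The orphan receptor gene Nr4a1 differed by -2.83 (adjusted p = 0.000104), Fos by -2.13 (adjusted p = 0.00413) and the phosphatase gene Dusp1 by -1.79 (adjusted p = 0.00737). In NP rats 6 of 8 were lower and 0 higher, led by Fos (-4.40), Dusp1 (-3.45) and Nr4a1 (-3.25). These 3 are also on the list of immediate-early genes. Among other CREB and ATF genes, Atf3, a stress-induced repressor, was lower in whole cervix by -5.54 at D21 (adjusted p = 5.58e-05) and -5.27 in NP rats (adjusted p = 1.51e-05), and Atf2 was higher by 1.34 at D21 (adjusted p = 0.0432). The gene most like Crem over the 12 arrays was Aida (r 0.943), followed by 2 transcripts known only by their identifiers (0.873 and 0.870).

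Between D21 and NP depleted cervix, 7 members were tested and 0 called in either direction by limma, against 5.45% of 13366 genes higher and 2.06% lower. At an unadjusted p below 0.05 there were 2, Cebpa and Runx1, and the methods' t-test also called 0. Their median difference was -0.52 against 0.02 over all genes. The test of whether Mφ removal acted differently at D21 and in NP rats, at an adjusted p below 0.05, also called 0 of 8 members, against 0.448% of 14494 genes higher and 1.97% lower. At an unadjusted p below 0.05 there was 1, Irf8.

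Other haematopoietic transcription factors, 29 genes of which 20 were tested between whole and depleted cervix, were mostly not called. At D21, 2 were higher in whole cervix, Klf2 (1.20, adjusted p = 0.0132), a factor of endothelial cells and lymphocytes, and Stat6 (1.14, adjusted p = 0.0405), which acts downstream of interleukin 4, and 1 was lower, Bcl6 (-1.0, adjusted p = 0.0374). In NP rats 4 were higher, led by Lyl1 (3.13, adjusted p = 0.00231), Zeb2 (2.59, adjusted p = 0.00125) and Mitf (2.36, adjusted p = 0.0151), and Bhlhe40 was lower (-1.64, adjusted p = 0.00227). Zeb2 and Mitf were also higher in D21 than in NP depleted cervix, by 2.01 (adjusted p = 0.028) and 2.84 (adjusted p = 0.0279). Bhlhe40 was higher at D21 in whole cervix by 2.27 (adjusted p = 0.00437). It was the only gene of this list called by limma for an effect of removal that differed between the stages (2.17, adjusted p = 0.0321). Mitf (-3.52, adjusted p = 0.071) and Zeb2 (-2.45, adjusted p = 0.0749) differed by more in that test but did not pass its threshold. At an unadjusted p below 0.05 there were 6 of 20 genes.

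Other cell types moved with Mφ removal too. In whole cervix, mast cell markers were called higher for 5 of 6 genes tested at D21 and 4 of 5 in NP rats, where the other was lower, smooth muscle markers for 6 of 9 and 9 of 9, and fibroblast markers for 5 of 10 and 9 of 10. The mean of 10 fibroblast markers lay between 3.79 and 4.23 in whole and 1.78 and 2.68 in depleted D21 cervix, and between 3.81 and 3.90 in whole and -1.46 and -0.11 in depleted NP cervix. Of the mast cell markers, only 1 could be tested between the depleted groups, so most passed the background filter only through whole cervix. Neutrophil markers were called for 1 of 4 genes at each stage. Whether these cells carried part of the Spi1 or Crem signal was not tested. Of the housekeeping genes, limma called 0 of 8 tested at D21 and 0 of 7 in NP rats, with 1 and 2 at an unadjusted p below 0.05.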

How the data were processed

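The authors deposited scanner intensity values of each spot, written by Agilent Feature Extraction (version 9.5.3.1, array annotation on rn4) with background subtracted and no normalization between arrays, and also GeneSpring ratio values, intensities over the 75th percentile of the same array. Here, spots flagged as outliers (294 to 648 per array) were left out, spots of a probe were averaged, and log2 intensity minus the log2 75th percentile of the array was used. RefSeq accessions named 17328 of 30367 probes (57.1%), and the brightest probe stood for a gene. limma 3.58.1 in R 4.3.3 fitted all 12 arrays with a mean per group. A gene was tested where all 3 arrays of either group compared had it well above background. Marker and target genes detected only in whole cervix thus entered through that group, which favours calls as higher there. Named list genes are at most the 3 called with the largest change per direction, besides Csf1r, Adgre1, Ptprc, Cd68 and Itgam. A few genes that this rule names are not reported here. Members and lists were chosen with earlier results of these data known. The step was tested on simulated data. The number of arrays limits the precision. The methods' t-test, limma with adjusted p, the arrays compared alone, normexp (offset 50), quantile normalization, other filters and probe rules, array weights, slide or scan day blocks, the authors' table and leaving out each rat were tried.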

Additional observations from a re-analysis of the deposited data

How the results depend on the processing

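Over all alternatives, 993 of 1068 recomputed member values kept their direction and their side of the call, 39 changed sign, 25 lost the call and 11 gained it. The Spi1 differences between whole and depleted cervix ranged from 1.38 to 4.30 at D21 and from 2.23 to 4.26 in NP rats, the 4.30 being set against a lone array not well above background. The members called higher at D21 (Spi1 and Crem) fell from 2 to 1 with the methods' t-test at its unadjusted threshold, the filter on every array compared, array weights or the slide block, and to 0 with the methods' t-test after adjustment or with normexp. The Spi1 call in NP rats fell to 0 with the adjusted methods' t-test and with the filter on every array. The Runx1 call in NP rats fell to 0 with either form of the methods' t-test, only the arrays compared, normexp, either block, the last scan day alone or without the 2 dimmest arrays (an alternative added after seeing the data, like the other Crem probes). The Runx1 call between D21 and NP whole cervix fell to 0 with either form of the methods' t-test, normexp or without the 2 dimmest arrays. With the percentile taken over probes detected on all arrays, 1 member, Cebpa, was called lower between depleted groups. Leaving out each rat gave, for members called higher and lower, 1 to 2 and 0 to 1 at D21, 1 to 1 and 0 to 1 in NP rats, 1 to 2 and 0 to 0 between whole groups, and 0 to 1 for each direction between depleted groups.

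Values that changed sign were not called in the main test. With normexp, Irf5 was 0.02 between whole and depleted cervix at D21 and 0.01 between whole groups, and the Maf interaction was -0.22. With the slide block, whole minus depleted at D21 was -1.41 for Irf8, -0.46 for Cebpa and 0.36 for Runx1, Irf8 was -0.14 between whole groups and the Irf5 interaction was -0.38. Within the last scan day these D21 differences were -0.23, -0.05 and 0.14, those between depleted groups were 0.40 for Irf8, -0.16 for Cebpb and -0.32 for Maf, and the interactions were 0.17 for Spi1 and 0.37 for Cebpb. The Maf interaction was -0.07 with the scan day block, the Cebpb interaction 0.14 with quantile normalization and the Spi1 interaction 0.00 with the percentile over detected probes. Without the 2 dimmest arrays Spi1 was 0.07 between whole groups and its interaction 0.21. Leaving out each rat moved Maf at D21 from -0.21 to 0.66, Cebpa in NP rats from -0.39 to 0.10, Spi1, Irf5 and Crem between whole groups from -0.45 to 0.28, -0.58 to 0.04 and -0.02 to 0.52, Maf between depleted groups from -0.17 to 0.70, and the interactions of Spi1, Cebpb and Maf from -0.55 to 0.18, -0.51 to 0.09 and -0.43 to 0.44. Where no cause is given by the construction of an alternative, the cause was not tested. Counts over all genes moved by more than 1.5 times in 94 of 272 recomputations, and the methods' t-test without adjustment called 394 genes as higher and 256 as lower at D21 against 1431 and 1096 with limma, 852 and 572 against 1823 and 1443 in NP rats, 288 and 204 against 757 and 434 between whole groups, and 162 and 44 against 729 and 276 between depleted groups. After adjustment it called 8 and 3, 468 and 246, 0 and 0, and 0 and 0. No paired analysis was possible because the groups compared share no rat number. Interaction tests with the methods' t-test or the arrays compared alone were not run.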
